A study of Rattus norvegicus with 10 samples.

Results

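The genes Gfap (ENSRNOG00000002919), Aqp4 (ENSRNOG00000016043), Slc1a2 (ENSRNOG00000005479) and Slc1a3 (ENSRNOG00000016163) were examined in RNA-seq of the rat prefrontal cortex (PFC). They are 4 of the 30560 genes of the count table and were taken by their Ensembl identifiers, with no threshold on their levels. The choice was made with earlier results of these data known. Male wild-type SD rats, 21 days old at first, were habituated for 1 week and then received intraperitoneal injections for 2 weeks. The MK-801 group (5 rats) received MK-801 at 0.2 mg/kg, and the control group (5 rats) received 0.9% saline. MK-801 is a non-competitive antagonist of the NMDA receptor, a glutamate-gated channel of neurons, and rats given it repeatedly are used as a model relevant to schizophrenia. Each rat gave 1 library of PFC tissue, so that the values are of whole tissue, and the groups hold 1 sex, 1 strain and 1 dose. The comparison asks whether repeated MK-801 was accompanied by a change in astrocyte genes and in the astrocyte machinery of glutamate uptake.

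Astrocytes are the glial cells that wrap synapses and blood vessels. They take up the glutamate that neurons release, convert it to glutamine and return it to the neurons. Gfap encodes the intermediate filament of astrocytes and is widely used as a marker of their reactive state. Aqp4 encodes the water channel that is concentrated at the astrocyte endfeet around vessels. Slc1a2 encodes GLT-1 (EAAT2), the transporter that carries most of the glutamate uptake in the forebrain, and Slc1a3 encodes GLAST (EAAT1), the other main glutamate transporter of astrocytes. Both transporters clear the transmitter of the receptor that MK-801 blocks.

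The stretches of 250 bases before the first listed transcription start of Gfap and of the transporter genes are shown here, since the counts of these genes are compared with one another within each rat. The sequences are from RefSeq on the GRCr8 assembly, read 5′ to 3′ along the strand of the gene, with each CG dinucleotide in capitals. They lie at chr10:88361662-88361911 on the minus strand (Gfap), chr3:109459859-109460108 on the plus strand (Slc1a2) and chr2:59557809-59558058 on the minus strand (Slc1a3).
Gfap: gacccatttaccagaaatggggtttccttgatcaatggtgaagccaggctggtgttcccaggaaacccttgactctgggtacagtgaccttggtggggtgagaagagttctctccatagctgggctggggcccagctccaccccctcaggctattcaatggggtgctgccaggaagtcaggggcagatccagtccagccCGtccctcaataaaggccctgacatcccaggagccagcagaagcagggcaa
Slc1a2: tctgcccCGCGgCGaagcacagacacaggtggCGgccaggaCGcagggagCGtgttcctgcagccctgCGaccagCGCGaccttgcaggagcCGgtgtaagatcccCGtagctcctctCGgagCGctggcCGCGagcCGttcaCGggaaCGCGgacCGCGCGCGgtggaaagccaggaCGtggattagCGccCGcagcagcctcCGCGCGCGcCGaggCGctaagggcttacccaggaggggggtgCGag
Slc1a3: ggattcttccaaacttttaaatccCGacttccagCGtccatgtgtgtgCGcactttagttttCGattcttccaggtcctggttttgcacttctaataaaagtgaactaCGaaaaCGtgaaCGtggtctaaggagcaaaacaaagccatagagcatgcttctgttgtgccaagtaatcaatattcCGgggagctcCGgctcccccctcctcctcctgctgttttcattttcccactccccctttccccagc
The stretch of Slc1a2 held 33 CG dinucleotides and 71.2% G and C. That of Gfap held 1 CG dinucleotide and 57.6% G and C, and that of Slc1a3 held 9 and 48.0%. The stretch of Aqp4, taken in the same way, held 4 and 44.8%. Over all 33469 stretches of this length in the RefSeq table the median was 5 CG dinucleotides, and 3.60% of the stretches held as many as that of Slc1a2 or more. RefSeq lists a further start of Slc1a2, whose stretch held 2. The counts do not separate transcripts by their start.

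All 4 genes were detected in every rat, with the lowest count at 6047 reads (Gfap) and the highest at 27752 reads (Slc1a2). At these depths the counting error of a single rat was between 0.600% and 1.29% of the value, far below the spread between rats. The libraries held between 24334589 and 30824539 counts, and in all 45 pairs of rats the libraries differed by more than sampling noise. Levels are given as CPM, the counts per 1000000 counts after scaling of the libraries by the TMM method. CPM values are not divided by transcript length, so they compare rats within a gene and not 1 gene with another. In libraries of whole tissue, fewer astrocytes and less of a transcript per astrocyte cannot be told apart. Markers of neurons, of other glia and of vessels were not analysed here, because the identifiers in the table could not be paired with gene names.

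No difference between the MK-801 and the control group passed the test for Gfap, Aqp4, Slc1a2 or Slc1a3. By edgeR's quasi-likelihood test, 0 of 4 passed an adjusted p-value threshold of 0.05, as did 0% of the 16137 genes tested. At an unadjusted p-value under 0.05 the number was also 0 of 4, where 13.9% of all genes tested had such a value. The selection criteria of the study's methods ask for a p-value under 0.05 (taken as unadjusted) and a log2 fold change of 1 or more in either direction. By these criteria edgeR gave 0 of 4 beside 0.229% of all genes. DESeq2, which the study used, gave 0 of 4 by them, beside 115 of the 23893 genes it tested. In 0 of 4 genes did the groups lie apart without overlap, which was the case for 2.31% of all genes. DESeq2 gave 0 of 4 at an adjusted p-value under 0.05, beside 0.444% of the 23893 genes it tested, and 0 of 4 at an unadjusted one, beside 9.95%. With limma-voom the number was again 0 of 4 at either threshold, beside 0% of all genes adjusted and 13.8% unadjusted. The point estimates of 3 of the 4 genes, those of Gfap, Aqp4 and Slc1a3, lay below 0, as did those of 51.3% of all genes tested.

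For the filament gene Gfap, control replicates 1 to 5 had 282, 345, 419, 362 and 268 CPM. MK-801 replicates 1 to 5 had 318, 242, 343, 399 and 195 CPM. The groups overlapped widely, with 3 of 5 MK-801 rats inside the control range and MK-801 replicates 2 and 5 below it. Control rats averaged 335 ± 61.8 CPM and MK-801 rats 300 ± 81.4 CPM (SD, n = 5 each). The log2 fold change of MK-801 over control was -0.16 with a 95% interval from -0.56 to 0.23 (adjusted p = 0.715 in edgeR's test, adjusted by Benjamini-Hochberg over all genes tested). This interval spans a level between 0.680 and 1.17 times that of the control group. Gfap varied most among rats of the 4 genes, by a factor of 2.15 between the lowest and the highest of the 10 rats.

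The water channel gene Aqp4 had 375, 414, 525, 537 and 382 CPM in control replicates 1 to 5. In MK-801 replicates 1 to 5 it had 408, 363, 413, 531 and 288 CPM. Control replicates 3 and 4 and MK-801 replicate 4 stood above the other rats, and MK-801 replicate 5 was the lowest of the 10. Control rats averaged 446 ± 78.6 CPM and MK-801 rats 400 ± 88.7 CPM (SD, n = 5 each). The log2 fold change was -0.16 with a 95% interval from -0.49 to 0.18 (adjusted p = 0.672 in edgeR's test), that is, a level between 0.711 and 1.13 times that of the control group.

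The GLT-1 gene Slc1a2 had 749, 686, 873, 1088 and 704 CPM in control replicates 1 to 5. In MK-801 replicates 1 to 5 it had 825, 732, 960, 851 and 754 CPM. All 5 MK-801 rats lay inside the range of the control rats, and control replicate 4 was the highest of the 10. Control rats averaged 820 ± 166 CPM and MK-801 rats 824 ± 90.1 CPM (SD, n = 5 each). The log2 fold change was 0.01 with a 95% interval from -0.26 to 0.28 (adjusted p = 0.984 in edgeR's test). A level below 0.833 or above 1.21 times that of the control group lay outside this interval.

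The GLAST gene Slc1a3 had 674, 699, 837, 853 and 581 CPM in control replicates 1 to 5. In MK-801 replicates 1 to 5 it had 688, 629, 736, 734 and 525 CPM. Replicate 5 was the lowest rat of either group, and 4 of 5 MK-801 rats lay inside the control range. Control rats averaged 729 ± 115 CPM and MK-801 rats 663 ± 88.4 CPM (SD, n = 5 each). The log2 fold change was -0.14 with a 95% interval from -0.40 to 0.12 (adjusted p = 0.628 in edgeR's test), a level between 0.760 and 1.09 times that of the control group.

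**Figure D1:**
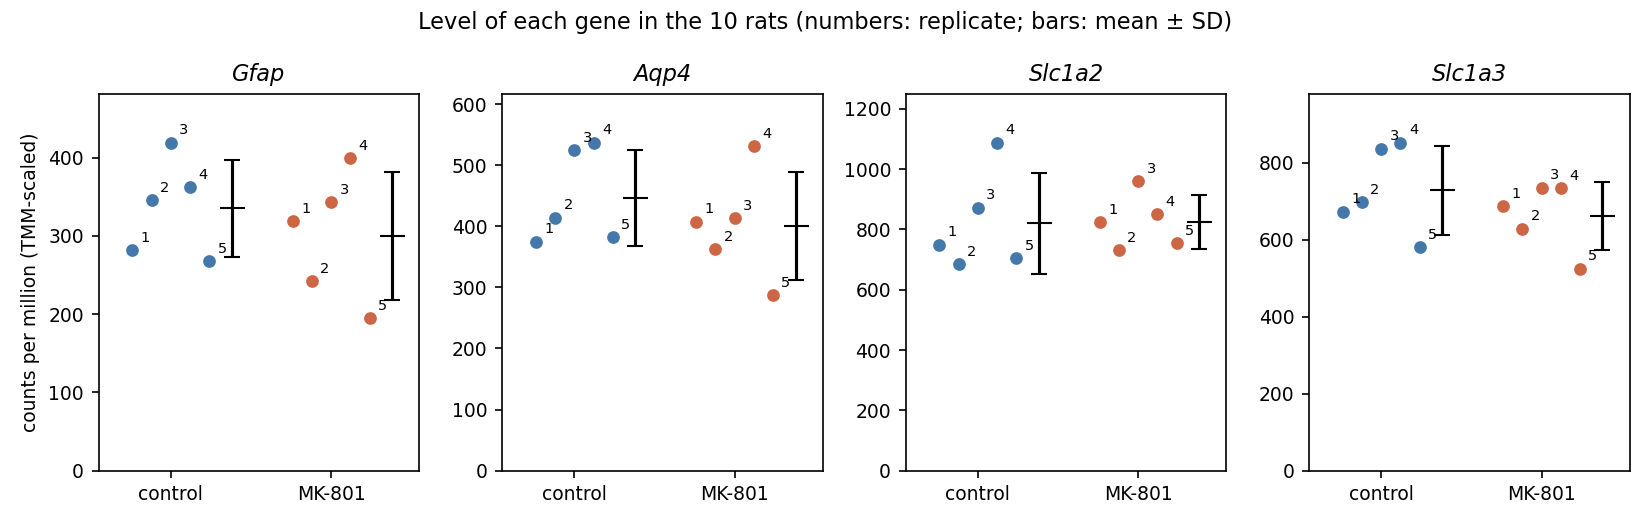
Level of Gfap, Aqp4, Slc1a2 and Slc1a3 in CPM (TMM-scaled, vertical axis) in the 5 control and the 5 MK-801 rats, each point 1 rat with its replicate number, and the bar the mean ± SD of the group. The groups overlap in every gene, and MK-801 replicate 5 is the lowest rat for Gfap (195), Aqp4 (288) and Slc1a3 (525).

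Tested singly, the 4 genes gave two-sided exact permutation p-values of 0.413 (Gfap), 0.405 (Aqp4), 0.849 (Slc1a2) and 0.357 (Slc1a3) for the difference in mean log2 CPM, where 5 rats against 5 allow a smallest p of 0.00794. The log2 fold changes of Gfap, Aqp4 and Slc1a3 varied in size with single rats of both groups. They stayed below 0 whichever rat was left out, with no adjusted p-value under 0.05 in edgeR's test. Without MK-801 replicate 5 the log2 fold changes were -0.04 for Gfap, -0.05 for Aqp4 and -0.06 for Slc1a3. Without control replicate 3 they were -0.07, -0.09 and -0.08 for the same genes. Without control replicate 4 they were -0.13, -0.08 and -0.07. Leaving out some other rats moved them away from 0. Without MK-801 replicate 4 they were -0.28, -0.28 and -0.17, and without control replicate 5 they were -0.23, -0.20 and -0.20. The share of counts in the 10 most abundant genes averaged 8.27% ± 1.81 in control rats and 6.66% ± 0.471 in MK-801 rats (SD, n = 5 each; exact permutation test, two-sided, p = 0.0714). With this share as a covariate the log2 fold changes turned to 0.11 for Gfap, 0.07 for Aqp4 and 0.08 for Slc1a3, and that of Slc1a2 was 0.15, with adjusted p-values in edgeR's test between 0.926 and 0.971. The part of this share in the differences was not tested further.

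**Figure D2:**
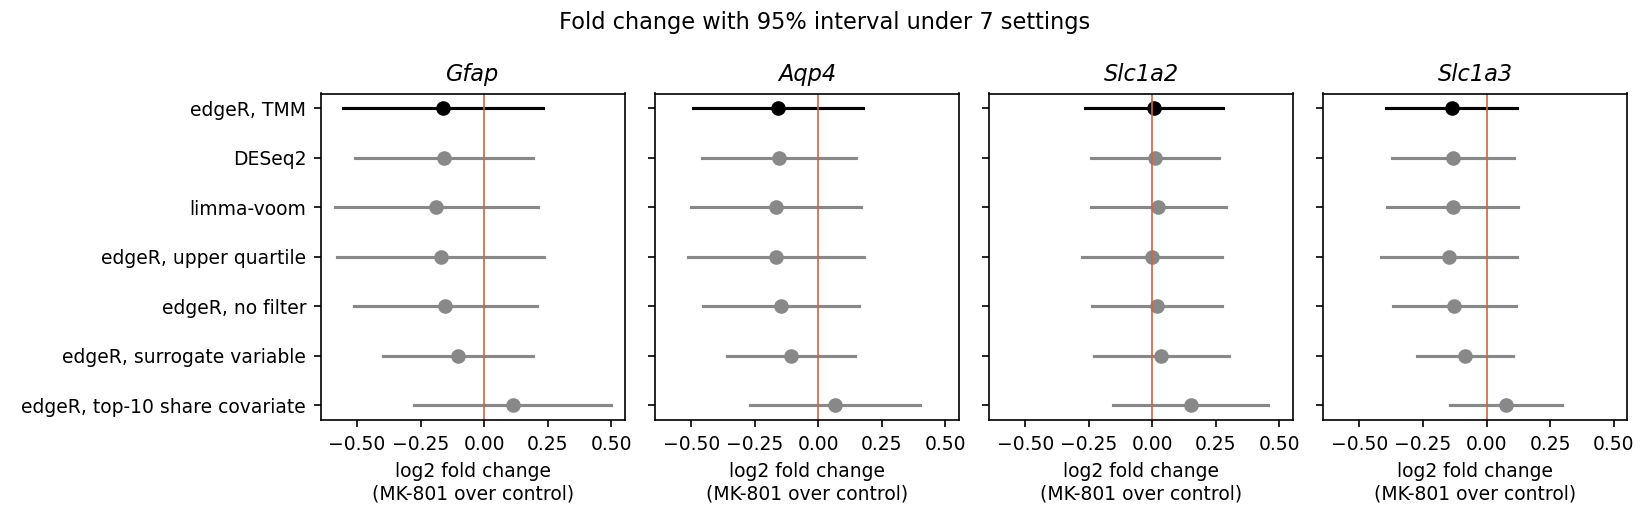
Log2 fold change of MK-801 over control (horizontal axis) with its 95% interval for each of the 4 genes, under edgeR with TMM scaling (black) and 6 other settings (grey): DESeq2, limma-voom, and edgeR with upper quartile scaling, with no filter, with a surrogate variable or with the top-10 share as a covariate. In these 7 settings every interval includes 0 (the fit with the replicate number as a block is not drawn), and once the 10 most abundant genes' share enters as a covariate the estimate of Gfap moves from -0.16 to 0.11.

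To compare the genes with one another independently of the scaling of the libraries, the ratio of the counts of 2 genes was taken within each rat. Since lengths are not accounted for, only the difference of a ratio between rats has a meaning. The ratio of the transporters, Slc1a2 over Slc1a3, was 1.11, 0.981, 1.04, 1.28 and 1.21 in control replicates 1 to 5. It was 1.20, 1.16, 1.30, 1.16 and 1.44 in MK-801 replicates 1 to 5. Control replicates 1, 2 and 3 lay below every MK-801 rat, and control replicates 4 and 5 lay among them. The group means were 1.12 ± 0.120 (SD, n = 5) and 1.25 ± 0.118 (SD, n = 5), a log2 difference of 0.16 of MK-801 over control (two-sided exact permutation test, p = 0.127; adjusted over the 6 pairs of genes, p = 0.524). The test did not show a difference between the groups, and with 5 rats in each it does not show that the ratio was equal.

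Slc1a2 over Gfap gave a log2 difference of 0.21 (exact permutation test, p = 0.262) and Slc1a2 over Aqp4 one of 0.19 (p = 0.214 in the same exact test), both 0.524 after adjustment. MK-801 replicate 5 was the highest rat in both ratios, at 3.87 and 2.62, and MK-801 replicate 4 the lowest of its group, at 2.13 and 1.60. In the ratios without Slc1a2, the differences were smaller. They were 0.06 for Slc1a3 over Gfap, 0.03 for Slc1a3 over Aqp4 and 0.02 for Aqp4 over Gfap, with exact permutation p-values of 0.635, 0.714 and 0.778. The ratio of Aqp4 over Gfap spanned the smallest factor of the 6 over the 10 rats, 1.25, where Gfap itself spanned 2.15 and Aqp4 1.87. Within groups, the SD of its log2 ratio was 0.131, the same as that of Slc1a3 over Aqp4.

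**Figure D3:**
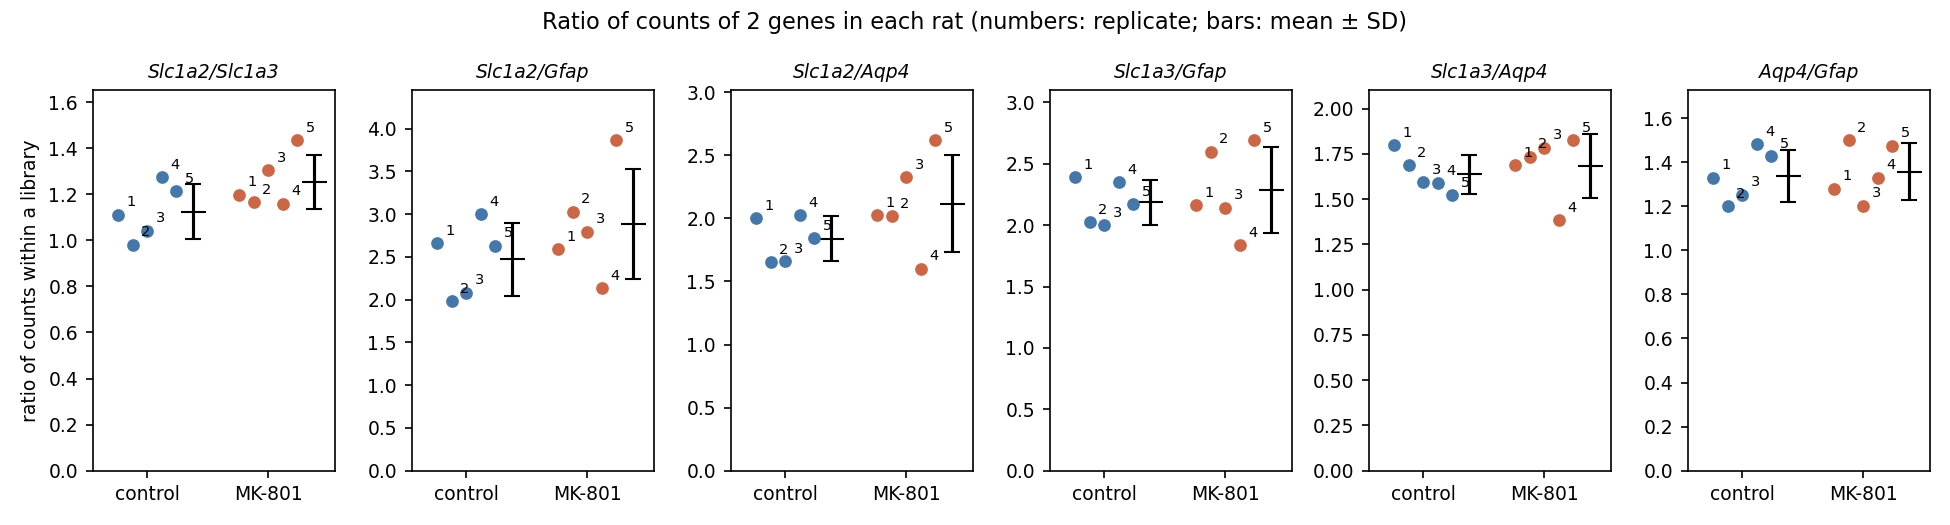
Ratio of the counts of 2 genes within each library (vertical axis) for the 6 pairs of genes, with each point 1 rat numbered by replicate and the bar the mean ± SD of its group. The groups overlap in all 6 ratios; Slc1a2 over Slc1a3 has means of 1.12 in the control and 1.25 in the MK-801 group.

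The genes varied together among rats of both groups. Measured from the mean of the 10 rats on the log2 scale, all 4 genes were above their mean in control replicates 3 and 4 and in MK-801 replicate 4. All 4 were below it in control replicates 1 and 5 and in MK-801 replicates 2 and 5. The mean deviation of the 4 genes ran from -0.43 in MK-801 replicate 5 to 0.33 in control replicate 4. Their summed counts made up 0.177% of the library in the former rat and 0.277% in the latter. The spread within groups (SD of log2 CPM) was 0.35 for Gfap, 0.29 for Aqp4, and 0.22 for each of the transporters, and the median of all genes tested was 0.16. A larger spread than that of Gfap was found in 17.7% of the genes tested, and a larger one than that of Slc1a3 in 35.4%. These shares are over genes of all levels, weakly expressed ones included. The 4 genes ranked from 122 (Slc1a2) to 477 (Gfap) by mean level, and genes of like level were not compared separately.

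**Figure D4:**
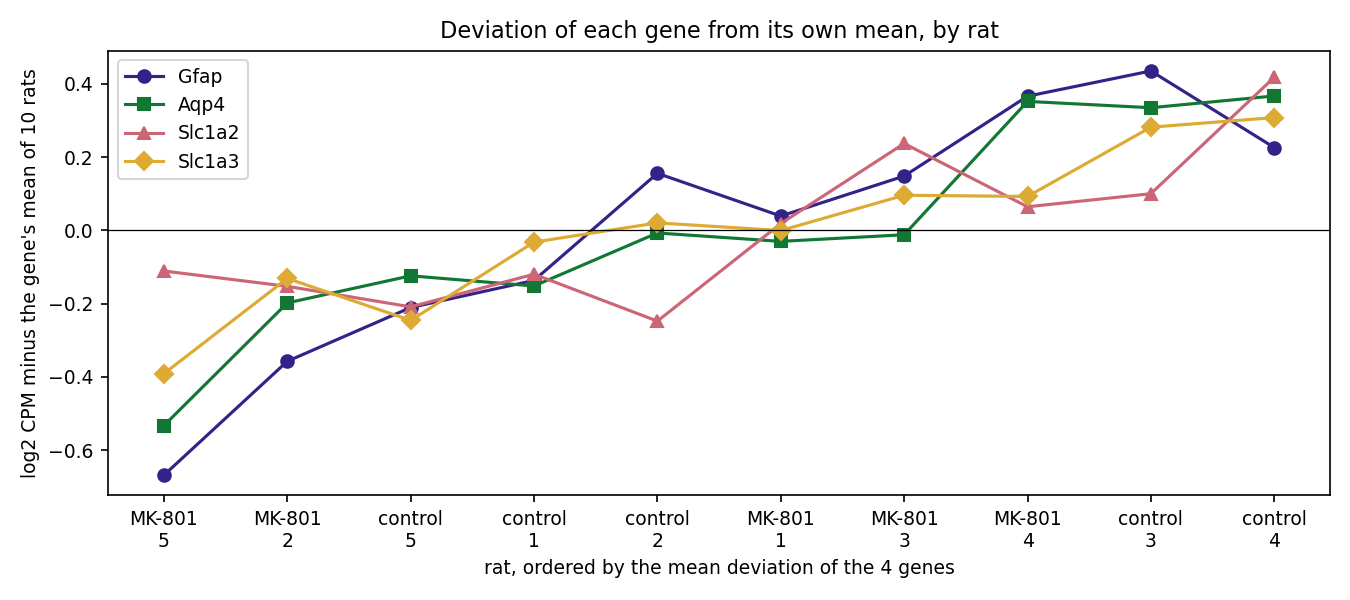
Log2 CPM of each of the 4 genes minus the mean of that gene over the 10 rats (vertical axis), with the rats ordered by the mean deviation of the 4 genes (horizontal axis). Rats of both groups are found at both ends, from -0.43 on average in MK-801 replicate 5 to 0.33 in control replicate 4, and the line of Slc1a2 departs from the others in MK-801 replicate 5 and control replicate 2.

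Correlations of log2 CPM over the 10 rats were computed for the 6 pairs of genes, with permutation p-values adjusted over the 6. Each point shares its library between both genes. Gfap and Aqp4 were most closely related, with Pearson's r = 0.938 (permutation p = 2e-05, adjusted p = 0.00012) and Spearman's rho = 0.939 (permutation p = 0.00016, adjusted p = 0.00096). Slc1a3 was related to Aqp4 with r = 0.912 (permutation p = 0.00033, adjusted p = 0.00082) and to Gfap with r = 0.907 (permutation p = 0.00041, adjusted p = 0.00082). Spearman's rho was 0.903 for both (permutation p = 0.00091 and 0.00092, adjusted p = 0.00184 for both). Without control replicate 4 and MK-801 replicate 5, which were the rats farthest from the median of Aqp4 in the first pair and of Slc1a3 in the other pairs, r was 0.927, 0.793 and 0.887 for these 3 pairs.

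Slc1a2 was less closely related to the other genes, although the difference between the correlations was not tested. With Slc1a3, r was 0.726 (permutation p = 0.0182, adjusted p = 0.0273) and rho was 0.733 (permutation p = 0.0197, adjusted p = 0.0295). Without control replicate 4 and MK-801 replicate 3, the rats farthest from the median of Slc1a2, r for this pair was 0.615 (exact permutation p = 0.105). Leaving out the farthest rats narrows the range of Slc1a2, so the lower r does not show that the relation rested on them. With Aqp4, r was 0.630 (permutation p = 0.0514, adjusted p = 0.0617) and rho was 0.564 (permutation p = 0.0967, adjusted p = 0.115), and without the same rats r was 0.623. With Gfap, r was 0.534 (permutation p = 0.114, adjusted p = 0.114) and rho was 0.539 (permutation p = 0.115, adjusted p = 0.115), and without the same rats r was 0.560. Taken as deviations from the group means, so that the difference between the groups did not enter, the 6 correlations lay between 0.577 (Slc1a2 and Gfap) and 0.933 (Aqp4 and Gfap).

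**Figure D5:**
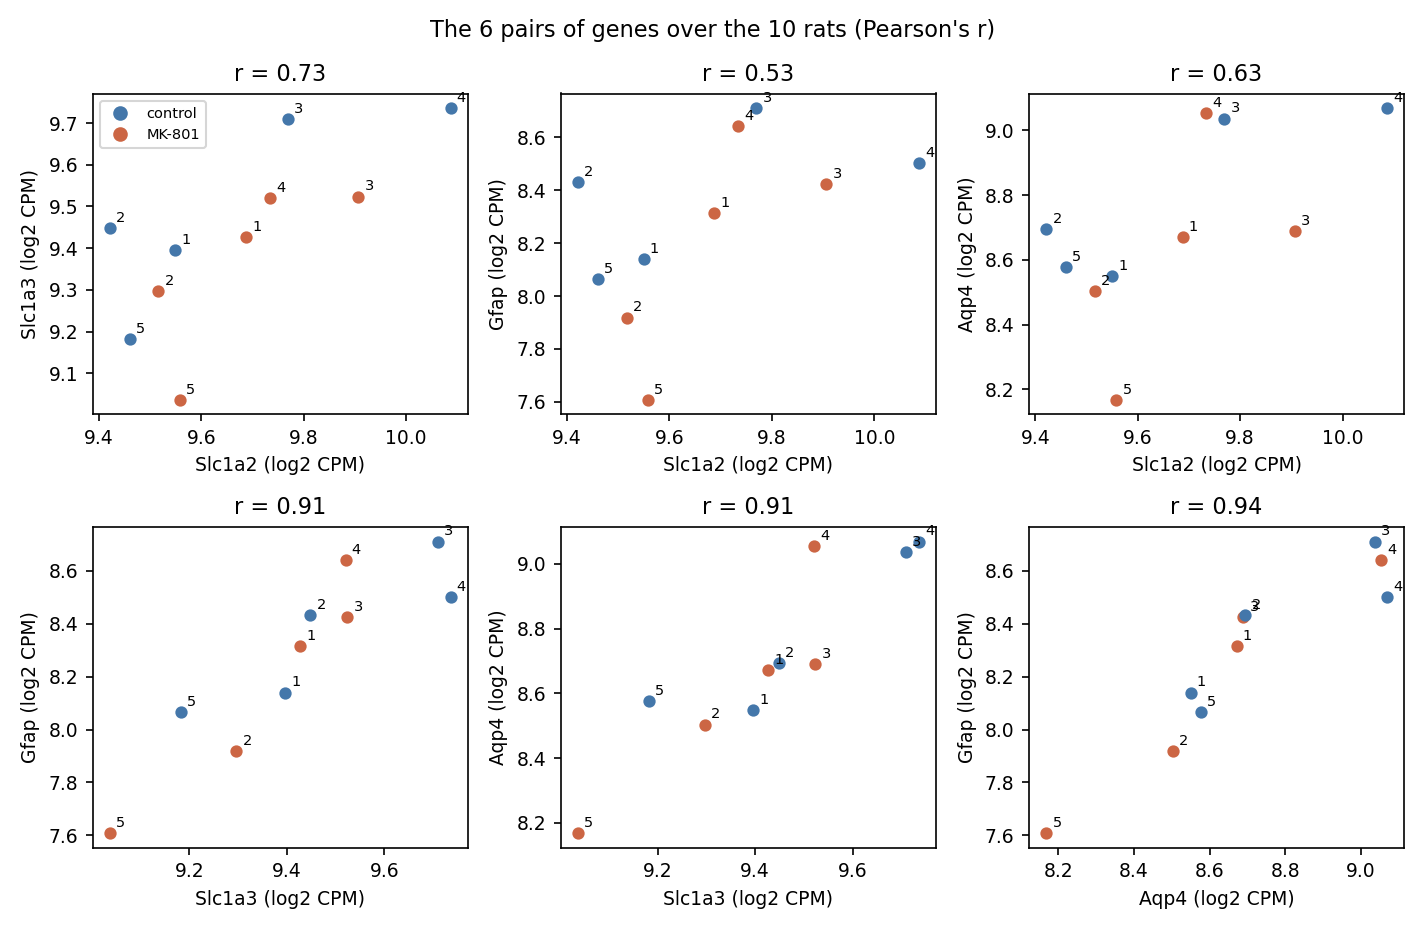
Log2 CPM of 1 gene against that of another for the 6 pairs of genes, each point 1 rat numbered by replicate and coloured by group, with Pearson's r above each panel. The points of Aqp4 and Gfap lie nearest to a line (r = 0.94), and those of Slc1a2 and Gfap are the most scattered (r = 0.53).

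Set against all other 16136 genes tested, Aqp4 had the second highest correlation with Gfap over the 10 rats, and Slc1a3 the 15th highest. For Aqp4, Gfap was at place 8 and Slc1a3 at place 21. Slc1a3 shared its course with more genes, since 146 genes reached r of at least 0.9 with it, against 19 for Gfap, 27 for Aqp4 and 13 for Slc1a2. For Slc1a3 itself, Aqp4 was only at place 106, Gfap at 127 and Slc1a2 at 1166. Among the genes most like Slc1a2, Slc1a3 was at place 373, Aqp4 at 862 and Gfap at 1561. The median correlation of all genes with each of the 4 lay between -0.01 and 0.00.

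Of 8 relations between a level and a property of the libraries, computed after the data were examined, 1 passed the adjusted threshold by Pearson's r and 0 by Spearman's rho. The relations with the share of counts in the 10 most abundant genes had r = 0.787 for Slc1a3 (permutation p = 0.00513, adjusted p = 0.0410; rho = 0.673, permutation p = 0.0391, adjusted p = 0.173), 0.669 for Gfap, 0.666 for Aqp4 and 0.370 for Slc1a2. The permutation p of r was 0.0337 for Gfap, 0.0357 for Aqp4 and 0.295 for Slc1a2, which became 0.0952, 0.0952 and 0.376 after adjustment over the 8. Spearman's rho was 0.661, 0.576 and 0.224 for these genes (permutation p = 0.0433, 0.0882 and 0.536, adjusted p = 0.173, 0.235 and 0.613). Without control replicates 3 and 4, which had the highest shares, r was 0.657 for Slc1a3 (exact permutation p = 0.0787), 0.534 for Gfap, 0.406 for Aqp4 and -0.18 for Slc1a2. With the total count of the library, r lay between -0.40 and -0.06, with adjusted permutation p-values from 0.376 to 0.878. The part of this share in the common course of Gfap, Aqp4 and Slc1a3 was not tested.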

How the data were processed

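PFC RNA of 10 male SD rats, 5 per group by the titles of the samples, was sequenced. The deposited values are raw counts per gene and rat, which the authors made by alignment in HISAT2 2.2.1, handling of alignments in SAMtools 1.15.1 and counting on Ensembl release 105 in featureCounts of Subread 2.0.1. The submitters' processing notes name the build mRatBN7.2, and no strand setting is given in the sources used here. How reads of overlapping or antisense genes were assigned is therefore not known here. The table lists Ensembl identifiers only, and 0 of 30560 matched the RefSeq table of GRCr8, so the symbols of the 4 genes follow from how the set was defined, and lists of other astrocyte, transporter and cell type genes were not analysed here.

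Groups were compared with edgeR version 4.0.16 (R version 4.3.3) after filterByExpr (minimum count 10, minimum total 15), which kept 16137 genes including all 4. TMM scaling, the quasi-likelihood test and Benjamini-Hochberg adjustment over all genes tested were used, and 95% intervals came from the fold change, its F statistic and its degrees of freedom. Ratios used counts plus 0.5 with exact permutation tests, and correlations used 100000 permutations. Relations with library measures were added after seeing the data. The named genes were to be all 4 members and, at most, 2 identifiers of like course. Alternatives were DESeq2 version 1.42.0, limma-voom (limma version 3.58.1), RLE and upper quartile scaling, no scaling factors, other filters on low counts, the replicate number as a block, the share of the 10 most abundant genes, 1 surrogate variable (sva version 3.50.0), and each rat left out. The fits were tested on simulated data. The members and lists were chosen with earlier results of these data known.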

Additional observations from a re-analysis of the deposited data

Results flagged for a closer look

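Among 20 sets of 5 rats (the levels of the 4 genes and the 6 ratios, in each group), 1 rat stood apart, where chance gives about 1 in 20. In the ratio of Slc1a3 over Aqp4, MK-801 replicate 4 had 1.38, and the other MK-801 rats had 1.69, 1.73, 1.78 and 1.83. Its gap to the nearest of them was 0.720 of the range of the log2 ratio in the group, above the critical value of 0.71 for 5 samples. Aqp4 was high in this rat, at 531 CPM, and so was Gfap, at 399 CPM. The ratio of Slc1a3 over Gfap was also lowest in this rat among all rats, at 1.84.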

How the results depend on the processing

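For Gfap, Aqp4, Slc1a2 and Slc1a3, the number with an adjusted p-value under 0.05 was 0 under all 20 alternatives, and so was that by the criteria of the methods. Over all genes, the adjusted threshold called 106 with DESeq2, 12 without MK-801 replicate 1 and 0 in the others. A covariate for the counts taken by the 10 most abundant genes reversed the log2 fold changes to 0.113 (Gfap), 0.0657 (Aqp4) and 0.0763 (Slc1a3). That of Slc1a2 was near 0 and turned to -0.0027 with upper quartile scaling. The cause was not tested. Leaving out 1 rat at a time gave from -0.28 to -0.04 for Gfap, from -0.28 to -0.05 for Aqp4, from -0.0526 to 0.131 for Slc1a2 and from -0.20 to -0.06 for Slc1a3. Gfap and Aqp4 were lowest without MK-801 replicate 4, and Gfap, Aqp4 and Slc1a3 nearest to 0 without MK-801 replicate 5. Using no scaling factors, added after seeing the data, changed no direction.

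Both groups carry replicate numbers 1 to 5, and no label gives them as pairs. Over all genes tested, deviations of same-numbered rats correlated above 0.1 in 3 of 5 pairs (0.183, 0.112 and 0.319 for replicates 1, 4 and 5, against -0.0489 and 0.0539 for replicates 2 and 3). Replicates 1 and 5 alone correlated best with their own number. These values do not settle the pairing, and rats were treated as unpaired. In edgeR's test with the replicate block, 1 gene of the 4, Slc1a3, had an unadjusted p-value under 0.05, as had 2862 of the 16137 genes tested. Its log2 fold change with the block was -0.13, with a 95% interval from -0.25 to -0.01 (adjusted p = 0.243, edgeR's quasi-likelihood test). The block changed no other call. It narrowed the 95% intervals of the other genes, to -0.44 to 0.06 for Gfap, -0.35 to 0.01 for Aqp4 and -0.16 to 0.20 for Slc1a2.

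With 1 rat left out, the log2 differences of the ratios ran from 0.106 to 0.203 (Slc1a2 over Slc1a3), 0.0985 to 0.313 (Slc1a2 over Gfap), 0.109 to 0.287 (Slc1a2 over Aqp4), -0.00739 to 0.130 (Slc1a3 over Gfap), 0.00344 to 0.104 (Slc1a3 over Aqp4) and -0.0177 to 0.0631 (Aqp4 over Gfap). The exact sign-flip test of these ratios over 5 same-numbered pairs cannot reach a p-value under 0.05.

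Correlations among Gfap, Aqp4 and Slc1a3 kept an adjusted p-value under 0.05 in all 13 alternatives. Slc1a2 and Slc1a3 lost it without the 2 rats farthest from the median (r = 0.615), without control replicate 4 (0.609) and without control replicate 5 (0.683). Slc1a2 and Aqp4 passed it with deviations from the group means (r = 0.682), without control replicate 2 and without MK-801 replicate 3, and Slc1a2 and Gfap without control replicate 2. With 1 rat left out, r ran from 0.609 to 0.813, 0.492 to 0.692 and 0.490 to 0.667 for these 3 pairs. Alternatives for gene lists were not run, for lack of gene names. Counting depth limits none of these values.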

Other observations

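Among all genes tested, the 2 with the highest mean correlation with Gfap, Aqp4, Slc1a2 and Slc1a3 over the 10 rats are given by identifier, since the table holds no names; the choice of these 2 followed from their values. ENSRNOG00000014297 had a mean r of 0.883, with 0.932 for Gfap, 0.949 for Aqp4, 0.681 for Slc1a2 and 0.969 for Slc1a3. ENSRNOG00000052064 had a mean r of 0.872, with 0.840, 0.889, 0.793 and 0.968 for the same genes. Their mean levels were 34.6 CPM (ENSRNOG00000014297) and 4.39 CPM (ENSRNOG00000052064), both far below those of the 4 genes. These are descriptions over 10 rats whose libraries are shared by all genes.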
